A study of Mus musculus with 7 samples.

Results

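The deposited footprint table lists 13167 mouse transcripts and counts ribosome footprints separately in the coding region and in each UTR. Wherever both UTRs were listed, these 3 regions left exactly 71 nt of the transcript uncovered, in all 12731 such transcripts. The footprints in the 71 nt were obtained by subtraction, as the whole-transcript count minus the 3 region counts. Of the 10690 transcripts with values in all 4 ribosome profiling libraries, 2866 had at least 10 such footprints in at least 2 libraries. These 2866 are the members described here. They were selected on their 71 nt counts, so the level of those counts is a description. The comparisons of genotypes below use the same counts, under a minimum that does not look at genotype. Members that met it in 1 genotype only are named without a test, but the counts of calls include them.

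The libraries came from primary mouse epidermis, the outer layer of the skin, in 2 groups of 2 replicates each. The knockout (KO) libraries are labelled as a transgenic knockout of Pelota (Pelo), and the wild-type (WT) libraries carry no other label of genotype. Strain, age, the Cre or promoter behind the knockout, and whether replicates were separate animals are not given in the labels. The p-values thus reflect no more than the variation among these 4 samples, which may be technical. All 4 libraries were depleted of ribosomal RNA with the same kit. Whether the tissue was cultured before extraction is not clear, since a growth protocol is cited.

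A ribosome covers a short stretch of mRNA, and ribosome profiling sequences that stretch after nuclease digestion. Ribosomes dwell at the start codon during initiation and at the stop codon during termination, so many analyses count the interior of the coding region apart from its 2 ends. Pelota, with its partner Hbs1l, splits ribosomes that have stalled on mRNA or sit past the end of translation.

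The position of the 71 nt was worked out from transcripts with a missing UTR. In 117 of 243 transcripts with no listed 5′ UTR the uncovered length was 65 nt, which assigns 6 nt to the end of the 5′ UTR. In 47 of 71 transcripts with no listed 3′ UTR it was 66 nt, which assigns 5 nt to the beginning of the 3′ UTR. With neither UTR listed it was 60 nt in 110 of 122 transcripts, so 60 nt lie inside the coding region. How the 60 nt divide between the first and the last codons is not stated in those files. The 71 nt therefore cover the surroundings of both the start and the stop codon, and their footprints cannot be split between them. The listed coding sizes were whole multiples of 3 in 100% of transcripts.

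RefSeq start-region sequences, from assembly GRCm38.p6, gave a second reading of the 5′ boundary. Of the 10690 listed transcripts, 8044 matched that table by symbol, 2161 of them members. Where the window reached far enough, an ATG began exactly 6 nt after the listed 5′ UTR in 738 of 1277 transcripts (57.8%). At the other offsets from 0 to 12 nt the share ran from 0.154% to 1.52%. Examples from well covered members are printed to show what the 5′ end of the region holds: the last 6 nt of the 5′ UTR, then the start codon in capitals, then the first coding bases. They are 24 bases of genome from RefSeq on the transcript's strand, so an intron could interrupt a longer stretch.
Krtdap: gacaccATGaagatcccaattctt
Krt10: accaccATGtctgttctatacagc
Defb6: tcagtcATGaagatccattacctg
Stfa3: ccatcaATGagtcaagaaaactta
H2-D1: tcccagATGggggcgatggctccg
Lypd3: acagctATGgatgccgccaggaga
Atp5b: tccgccATGttgagtcttgtgggg
Sdc4: gaagccATGgcgcctgcctgcctg

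The Krtdap stretch lies at chr7:30787921-30787944 on the plus strand, and that of Krt10 at chr11:99389315-99389338 on the minus strand. Defb6 lies at chr8:19225499-19225522 (plus), Stfa3 at chr16:36455347-36455370 (minus) and H2-D1 at chr17:35263108-35263131 (plus). Lypd3 lies at chr7:24636584-24636607 (plus), Atp5b at chr10:128083321-128083344 (plus) and Sdc4 at chr2:164443147-164443170 (minus). Each spans the end of the 5′ UTR and the beginning of the coding region of its gene.
A purine 3 bases before the ATG, the best known feature of an efficient mammalian start site, was present in 194 of 207 members with an ATG at the boundary (93.7%, 95% Wilson interval 89.6% to 96.3%). Among the other listed transcripts it was present in 469 of 530 (88.5%, 85.5% to 90.9%). In the printed examples Krtdap, Krt10, Defb6, Lypd3, Atp5b and Sdc4 have the purine, while Stfa3 and H2-D1 do not. Within the members the purine was found in 99 of 103 (96.1%) above the median density ratio and in 95 of 104 (91.3%) at or below it, with overlapping intervals (90.4% to 98.5% and 84.4% to 95.4%).

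Depth and tissue make-up frame the comparison of genotypes. Coding footprints over the whole table numbered between 4221675 and 5282276 per library. Pelo is not a member. Its coding region had 24 and 21 footprints in KO and 101 and 61 in WT, a log2 change of -1.65 (SE 0.247, adjusted p = 0.000317 in edgeR's quasi-likelihood test). Its 71 nt held 1 and 2 footprints in KO and 5 and 2 in WT. The 6 keratinocyte markers (Krt5, Krt14, Krt1, Krt10, Dsp, Trp63) accounted for 7.11% and 6.60% of the coding total in the KO libraries, against 2.87% and 2.90% in the WT libraries. The 15 dermal fibroblast markers took 4.58% and 5.16% in KO and 9.27% and 13.6% in WT. The 13 immune markers in the table were also lower in KO (0.370% and 0.402% against 0.828% and 0.854%), and adipocyte and skeletal muscle markers were lower as well. Melanocyte markers were higher in KO (0.0558% and 0.0344% against 0.0208% and 0.0226%). The part of these differences in the results below was not tested. In bulk tissue, fewer cells of a type and less RNA per cell cannot be told apart.

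Members were short and heavily translated. Their median listed coding size was 891 nt, against 1404 nt in the 7824 other listed transcripts, and their median 5′ UTR was 119 nt against 142 nt. The median coding density was 0.401 footprints per nt per library against 0.0583. Members held 88.3% and 87.4% of all 71 nt footprints in KO and 81.5% and 80.7% in WT. They held 78.3%, 78.0%, 73.6% and 74.6% of coding footprints in the same order of libraries. The minimum of 10 counts selects for abundance, which is why these differences carry no test.

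At the limit, 220 members had a second-highest count of exactly 10, and their median density ratio was 0.742. Another 290 transcripts stopped at 9, with a median of 0.692. Abhd5 (11 and 10 in KO, 7 and 9 in WT) and Acot9 (10 and 7, 10 and 8) lie just inside. Abcf3 (15 and 9, 5 and 6) and Abcg1 (13 and 9, 9 and 4) lie just outside.

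Footprints in the 71 nt were more frequent in KO, relative to the coding region, than in WT. Over the members, KO replicates 1 and 2 had 187500 and 171556 footprints in the 71 nt and WT replicates 1 and 2 had 106625 and 79976. Coding footprints of the same transcripts numbered 3573891, 3290143, 3624320 and 2948204. Per 100 coding footprints, the 71 nt held 5.25 and 5.21 in the KO libraries, compared with 2.94 and 2.71 in the WT libraries. The KO mean was 5.23 ± 0.0283 (SD, n = 2) and the WT mean 2.83 ± 0.163 (SD, n = 2), a ratio of 1.85. The genotypes did not overlap, and the exact two-sided permutation test gave p = 0.33, the smallest that 2 against 2 libraries allow. As a share of the 71 nt and coding footprints together, the values were 4.98% (95% Wilson interval 4.96% to 5.01%) and 4.96% (4.93% to 4.98%) in KO, and 2.86% (2.84% to 2.87%) and 2.64% (2.62% to 2.66%) in WT. These intervals cover counting error only.

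The density ratio divides footprints per nt in the 71 nt by footprints per nt in the listed coding region, so that 1 means equal density. Summed over members it was 0.709 and 0.708 in KO and 0.478 and 0.470 in WT. The typical member also sat below 1 in every library, with medians of 0.789 and 0.824 in KO and 0.538 and 0.536 in WT. The KO median was 1.50 times that of WT (0.806 ± 0.0247 against 0.537 ± 0.00141, SD, n = 2). Above 1 were 933 members (32.6%) and 1065 (37.2%) in the KO libraries, and 387 (13.5%) and 435 (15.2%) in the WT libraries. The whole distribution was shifted, as the cumulative curves show.

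**Figure D1:**
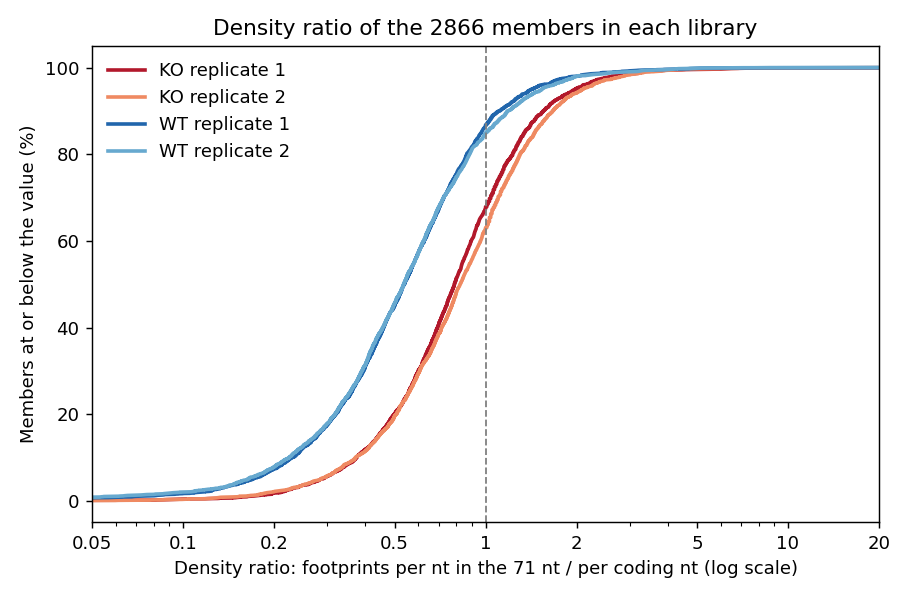
Cumulative share of the 2866 members (vertical axis, %) at or below each density ratio (horizontal axis, log scale), with 1 line per library and a dashed line at equal density. Both KO lines lie to the right of both WT lines, with medians of 0.789 and 0.824 against 0.538 and 0.536.

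The minimum could favour one genotype, since 447 members (15.6%) met it only in KO libraries and 104 (3.63%) only in WT libraries. Members that met it in 1 genotype only had to differ in their counts. The 1505 members with at least 10 footprints in the 71 nt in every library gave 5.44 and 5.38 by the same measure for KO, compared with 3.0 and 2.76 for WT. Over all 10690 listed transcripts, with no minimum, the values were 4.65 and 4.65 against 2.66 and 2.51, a ratio of 1.80. The higher level in KO was therefore present with and without the minimum.

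The neighbouring UTRs behaved differently from each other. Members' 5′ UTR footprints per 100 coding footprints were 1.14 and 1.31 in KO and 0.771 and 0.676 in WT, a ratio of 1.69 with no overlap (exact permutation p = 0.33). Their 3′ UTR footprints were 0.213 and 0.231 in KO and 0.222 and 0.223 in WT, a ratio of 0.998 with overlapping genotypes (exact permutation p = 1.00). Over all listed transcripts the 3′ UTR values were lower in KO, at 0.557 and 0.628 against 0.685 and 0.656, a ratio of 0.884 (exact permutation p = 0.33). Those of the 5′ UTR were higher there as well, at 1.48 and 1.72 against 1.09 and 0.997, a ratio of 1.53. The 71 nt resembled the 5′ UTR in direction. Footprints at the start and the stop codon cannot be told apart within the 71 nt.

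Taken per coding footprint, the 71 nt count fell steeply with coding length. A longer coding region collects more footprints against a fixed 71 nt. Per 100 coding footprints in KO replicate 1 the 71 nt held 24.6 in the 303 members of up to 300 nt, 10.7 in the 678 over 300 and up to 600 nt and 6.0 in the 895 over 600 and up to 1200 nt. It held 3.40 in the 699 over 1200 and up to 2400 nt and 1.11 in the 291 longer ones. In WT replicate 1 the same bins gave 18.4, 6.92, 3.97, 1.98 and 0.807.

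The density ratio removes this dependence on length, and little was left. Its medians were 0.788, 0.759, 0.783, 0.807 and 0.839 from the shortest to the longest bin in KO replicate 1. In WT replicate 1 they were 0.573, 0.497, 0.526, 0.555 and 0.647. The longest bin was the highest in all 4 libraries. Over all listed transcripts the medians in KO replicate 1 went from 0.711 in the shortest bin to 0.640 in the longest, and the slight rise with length of the members was not seen there. Long coding regions seldom met it: 62.0% of the listed transcripts of up to 300 nt were members, but 14.3% of those over 2400 nt. The KO summed density ratio exceeded that of WT in every length bin, by 1.33, 1.47, 1.53, 1.64 and 1.56 times.

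Coding abundance was split into 5 equal bins of coding footprints per nt, separately for the members and for all listed transcripts, so the bin limits differ. The lowest bin ran from 0.0175 to 0.198 in the members and from 0.0107 to 0.0353 in all listed transcripts. Members' median density ratio fell from 1.21 in the lowest to 0.616 in the highest bin in KO replicate 1, and from 0.909 to 0.404 in WT replicate 1. In the bins of all listed transcripts only 0.14% of the lowest bin were members, against 89.8% of the highest, so a low-abundance transcript needed a high ratio to qualify. All listed transcripts, in their own bins, had more level medians, of 0.624, 0.683, 0.643, 0.672 and 0.640 in KO replicate 1. Their WT replicate 1 medians were 0.503, 0.495, 0.460, 0.470 and 0.427. Their summed density ratios fell from 0.812 to 0.677 in KO replicate 1 and from 0.643 to 0.447 in WT replicate 1. The summed KO to WT ratio of the members lay between 1.38 and 1.54 across the 5 bins.

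**Figure D2:**
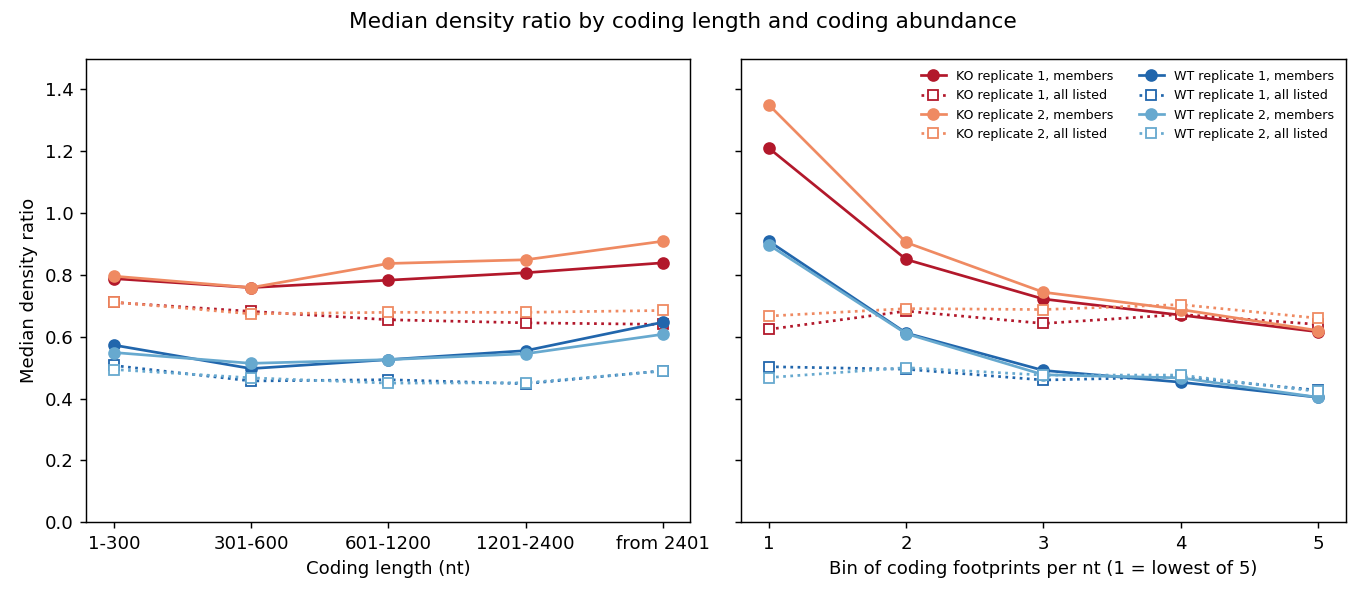
Median density ratio (vertical axis) by listed coding length in nt (left) and by bin of coding footprints per nt (right), with 1 colour per library, filled circles and solid lines for members and open squares and dotted lines for all listed transcripts. KO lies above WT in every bin for the members. The members' medians went from 1.21 to 0.616 with abundance in KO replicate 1 and from 0.909 to 0.404 in WT replicate 1. Those of all listed transcripts, whose abundance bins have other limits, went from 0.624 to 0.640 and from 0.503 to 0.427.

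Individual members spread widely around these medians. Over the 4 libraries summed, the density ratio had a median of 0.698, and its 5th and 95th percentiles were 0.277 and 1.63. It exceeded 1 in 638 members (22.3%) and 2 in 75, and it was below 0.2 in 56. Members were alike between libraries. Across the 2866 members, Pearson's r of the log ratio was 0.925 between the KO libraries and 0.881 between the WT libraries. Between genotypes it was 0.851 to 0.873. These are correlations across regions that share their lengths, and regions are not independent replicates.

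The 8 members with the most footprints in the 71 nt were Krt1, Lor, Apoe, Krtdap, Cst6, Sparc, B2m and Col1a1. Krt1, a keratin of the suprabasal layers, had 6005 and 4414 in KO and 434 and 339 in WT. Lor, which encodes loricrin of the cornified envelope, had 3693 and 2206 against 1236 and 872. Krtdap, a differentiation-associated keratinocyte peptide, had 3282 and 2301 against 1433 and 782. In these unscaled counts all 3 were higher in both KO libraries than in either WT library, as was the sum over all members. With the libraries scaled, Krt1 and Lor were called higher in 71 nt counts (edgeR adjusted p = 2.62e-07 and 0.0398). Krtdap was not (log2 0.67, edgeR adjusted p = 0.0792).
Cst6, an epidermal cysteine protease inhibitor, had 2919 and 3174 against 652 and 498. Apoe, the lipoprotein component, had 2029 and 2668 against 1959 and 1223. B2m, the light chain of class I MHC, had 1703 and 1857 against 1959 and 916, with overlapping genotypes. The dermal matrix genes Sparc and Col1a1 went the other way. Sparc, a matrix glycoprotein, had 1221 and 1546 in KO and 2286 and 2091 in WT, and Col1a1, a chain of type I collagen, had 832 and 1339 against 1925 and 1637.

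Except in Apoe, the 71 nt and the coding counts of these genes moved the same way. With each region scaled by its own factors, Apoe changed little in either. The log2 changes were -0.10 in the 71 nt and 0.05 in the coding region (edgeR adjusted p = 0.834 and 0.812). Its density ratio, which keeps the general rise, was 0.861 and 0.978 in KO against 0.617 and 0.51 in WT. B2m was not called in either (log2 -0.33 and -0.21, edgeR adjusted p = 0.418 and 0.357). The size of the ratio's change depended on the scaling. Krt1 rose in the 71 nt and in the coding region by log2 3.06, each region scaled by its own factors (SE 0.291 and 0.178, edgeR adjusted p = 2.62e-07 and 4.88e-07). Its 71 nt to coding ratio had a log2 change of 0.22 relative to the typical member (edgeR adjusted p = 0.612), and of 0.84 with coding scaling, which keeps the general rise (adjusted p = 0.00248). Sparc fell in the 71 nt by 1.36 on the log2 scale (adjusted p = 0.000835), while its density ratio was 1.62 and 1.84 in KO against 1.35 and 1.16 in WT. The Sparc ratio had a log2 change of -0.16 relative to the typical member (adjusted p = 0.730), which turned to 0.46 with coding scaling (adjusted p = 0.0403). With coding scaling all 8 of these genes were called higher in the ratio (adjusted p from 0.000854 to 0.0403), against 21.1% of all members. The 8 were chosen for the most 71 nt counts. Over all members, 356 (12.4%) rose and 365 (12.7%) fell in 71 nt counts in edgeR's test with TMM scaling. That scaling uses the 71 nt counts themselves, so these calls leave out the general rise. In coding counts of the whole table, of 10953 transcripts, 20.4% rose and 19.4% fell, while 1123 (39.2%) of the 2865 members tested rose and 443 (15.5%) fell. Members have more counts than the table as a whole, and 447 met the minimum only in KO libraries against 104 only in WT libraries. The part of either in these shares was not tested.

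The shift of the density ratio was of like size whichever way coding counts went. Among the 1123 members with more coding footprints in KO, the summed density ratio was 0.688 and 0.667 in KO and 0.448 and 0.451 in WT, a ratio of 1.51. Among the 443 with fewer it was 0.751 and 0.785 against 0.487 and 0.466, a ratio of 1.61. Among the 1299 not called it was 0.750 and 0.787 against 0.506 and 0.495, a ratio of 1.53.

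Gene by gene, both KO libraries exceeded both WT libraries in the density ratio in 1765 members (61.6%), and both lay below in 142 (4.95%). The genotypes overlapped in 959. Among all 10690 listed transcripts the shares were 36.6% and 7.58%, with lower counts behind each value. Among members with at least 10 footprints in every library, 988 of 1505 (65.6%) had both KO libraries above and 62 (4.12%) both below.

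The test of the 71 nt to coding ratio depended on how the typical change was treated. Scaling each region by its own TMM factors sets the typical change near 0 (median log2 -0.04), and 13 members (0.454%) then rose and 17 (0.593%) fell beyond it. Scaling both regions by the coding factors keeps the general rise, a median log2 change of 0.58 or 1.50 times, and 604 members (21.1%) rose and 7 (0.244%) fell. All 13 rises were also called with coding scaling. Of the 17 falls, 6 were, and all 17 remained below 0. With any 1 library left out, 3 to 8 rises and 1 to 4 falls were called, and of the 30 calls 9 and 10 remained without KO replicate 1 or 2 and 5 and 4 without WT replicate 1 or 2. The 13 rises include 4 members that met the minimum only in KO libraries, and the 17 falls include 3 that met it only in WT libraries. Those calls are a description. Calls for single genes below are relative to the typical member.

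**Figure D3:**
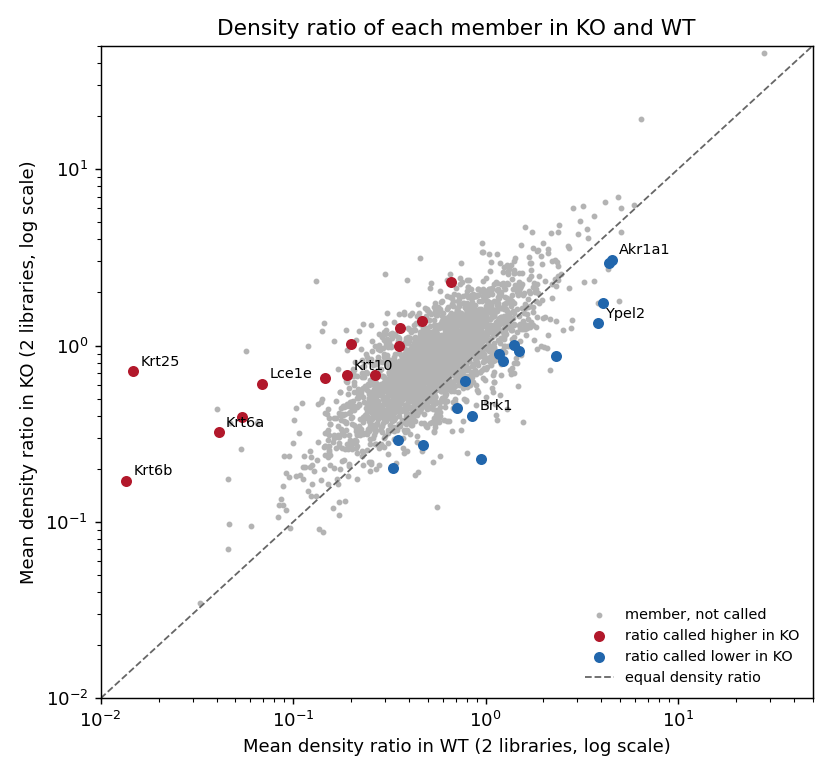
Mean density ratio of each member in KO (vertical axis) against WT (horizontal axis), both on log scales and each the mean of 2 libraries, with the 30 called members coloured and the dashed line at equal ratios. The cloud of 2861 members lies mostly above the line; 5 members with a genotype at 0 are not drawn.

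Among calls with a mean of at least 20 footprints in the 71 nt, the 8 largest rises were Krt25, Krt6b, Lce1e, Krt6a, Lce1g, Lce1f, Krt10 and Ly6c1. Krt25, Krt6b and Lce1e met the minimum only in KO libraries, where they are high, so their values are a description. Krt6a, a keratin of stressed and wounded epidermis, had 458 and 395 footprints in the 71 nt in KO and 9 and 16 in WT. Its density ratio was 0.344 and 0.301 in KO against 0.0292 and 0.0530 in WT, a log2 change of 2.35 (SE 0.282, edgeR adjusted p = 1.98e-05). Of the 16 largest changes only Krt6a kept its call under every alternative that was run. Its near-identical partner Krt6b had 204 and 165 against 0 and 6, with 24552 and 24171 footprints in the KO coding region and 4879 and 4981 in that of WT (fitted log2 ratio 3.01). The Krt6b change ran from 2.01 to 11.51 with a WT library left out. In both genes WT had between 4879 and 6948 coding footprints and few in the 71 nt. How reads matching both copies were counted is not known here, so these values are uncertain.

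Krt10, the partner of Krt1 in the suprabasal layers, had 2856 and 1986 footprints in the 71 nt in KO and 525 and 235 in WT. Its density ratios were 0.767 and 0.594 against 0.234 and 0.145 (log2 1.23, SE 0.205, adjusted p = 0.00111). Without WT replicate 2 the Krt10 call was lost, at a log2 change of 0.89 (edgeR adjusted p = 0.126). Krt25, a keratin of the hair follicle's inner root sheath, had 97 and 39 in KO and 1 and 0 in WT. Summed over libraries and relative to coding footprints, KO was 39.5 times WT, with an exact counting interval of 6.98 to 1573. Its fitted log2 change of 4.70 ran from 3.90 without WT replicate 2 to 10.76 without WT replicate 1.

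The late cornified envelope genes Lce1e, Lce1f and Lce1g, which encode structural proteins of the outermost layer, were all higher in KO. Lce1e had density ratios of 0.784 and 0.429 in KO and 0.0746 and 0.0638 in WT (fitted log2 2.49). Lce1f had 0.788 and 0.521 against 0.137 and 0.155 (log2 1.54, adjusted p = 0.00523). Lce1g had 0.391 in both KO libraries against 0.0226 and 0.0862 (log2 2.24, adjusted p = 0.0015). None of the 3 overlapped between genotypes. The genes are close copies of each other, and reads could be shared among them. The Lce1g change ran from 1.54 to 3.47 with a library left out, and its call was lost without WT replicate 1. The Lce1f call was lost without KO replicate 1 or either WT library.
Ly6c1, a cell surface protein, had 1.49 and 1.01 against 0.433 and 0.287 (log2 1.15, adjusted p = 0.0220). The other 5 rises were Sbsn, Krt79, Dapl1, Calm5 and Gstm2, with log2 changes of 0.74 to 1.73, named because they complete the calls. Of the 13 rises, 4 met the minimum only in KO libraries: Krt25, Krt6b, Lce1e and Gstm2.

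Among calls with the same mean of at least 20, the 8 largest falls were Ypel2, Brk1, Dgat2, Hist3h2a, Arpc3, Edf1, Myl9 and Akr1a1. Of the 17 falls, Scd3, Nck1 and Ypel2 met the minimum only in WT libraries, where they are high, so their values are a description. Ypel2, a Yippee-family protein, had 6 and 7 footprints in the 71 nt in KO and 52 and 47 in WT. Its density ratio was 1.27 and 1.41 against 3.66 and 4.05 (fitted log2 -2.15). Brk1, a subunit of the WAVE actin regulatory complex, had 0.579 and 0.224 against 0.839 and 0.872 (log2 -1.80, adjusted p = 0.0183). Brk1 ran from -2.51 to -1.06 with a library left out, and lost its call without KO replicate 2, WT replicate 1 or WT replicate 2. Arpc3, of the Arp2/3 actin complex, had 0.413 and 0.477 against 0.696 and 0.722 (log2 -1.30, adjusted p = 0.00653). The Arpc3 call was lost with any 1 of the 4 libraries left out and with coding scaling (-0.68, adjusted p = 0.0688). Both actin regulators were lower in both KO libraries.
Edf1, a factor known to be recruited to collided ribosomes, had 54 and 55 footprints in KO and 80 and 81 in WT. Its density ratio was 0.953 and 0.911 against 1.19 and 1.80 (log2 -1.26, SE 0.244, adjusted p = 0.00545). Dgat2, an enzyme of triglyceride synthesis, had 0.303 and 0.241 against 0.441 and 0.507 (log2 -1.39, adjusted p = 0.0299). Myl9, a myosin light chain of smooth muscle, had 0.893 and 0.743 against 1.25 and 1.20 (log2 -1.22, adjusted p = 0.0178). With coding scaling, which leaves the general rise in, the Edf1 change was -0.64 (adjusted p = 0.0663), that of Dgat2 -0.77 (adjusted p = 0.0930) and that of Myl9 -0.59 (adjusted p = 0.115), and the 3 calls were lost.
Hist3h2a (log2 -1.35) and Akr1a1 (log2 -1.20), an aldehyde reductase, lost their calls with coding scaling (-0.73, adjusted p = 0.0792, and -0.58, adjusted p = 0.0541). Falls with fewer counts were larger in part, at log2 -2.65 for Nck1, -2.05 for Cdh11 and -1.88 for Ifrd1. Scd3, a desaturase of the sebaceous gland, had 0 and 0 footprints in KO and 23 and 24 in WT, with 846 and 1139 against 5250 and 4268 coding footprints. Relative to coding footprints it was at least 3.27-fold lower in KO, with the floor set at 3 counts over both KO libraries. Scd3 is named by the rule for the lowest density ratios. Its mean of 11.8 footprints is below the 20 required of named falls, so its fall was described after its values were seen. Its close paralog Scd2 (16 and 21 against 7 and 15) could share reads with it. Lypd3, a GPI-anchored protein of the suprabasal layers whose start is printed above, had 0.951 and 1.06 against 1.27 and 1.52 (log2 -1.09, adjusted p = 0.00111), a call lost with coding scaling (-0.47, adjusted p = 0.0651). Ogt, Cstb, Canx and Mfap4 were also called lower, at log2 -1.18 to -0.88.

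**Figure D4:**
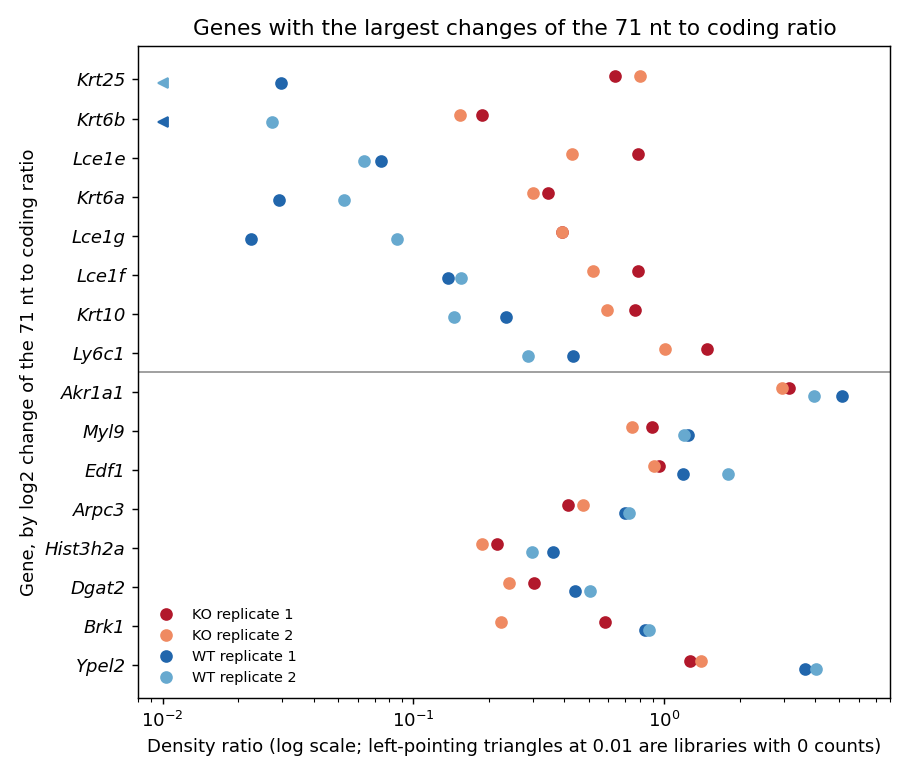
Density ratio (horizontal axis, log scale) of the 8 largest rises and the 8 largest falls of the 71 nt to coding ratio (vertical axis, genes in order of the change), with 1 point per library. For the 8 genes above the grey line both KO libraries lie above both WT libraries, and for the 8 below it both lie below; triangles mark 0 counts, as for Krt6b in WT replicate 1.

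The extremes of the density ratio were of other kinds. Among the 2299 members with at least 100 coding footprints in every library, Ppia, which encodes the prolyl isomerase cyclophilin A, was highest at 6.16 (exact 95% interval 5.77 to 6.59 over the summed counts). Its 71 nt held 669 and 614 footprints in KO and 315 and 193 in WT, against 631 and 508 and 407 and 234 in the coding region. Pla2g2f, a secreted phospholipase of the suprabasal epidermis, followed at 5.60, with 6.09 and 5.91 in KO and 3.88 and 6.27 in WT. Both genes had at least 3 times the density of their coding regions in every library. Akr1a1 and Ogt, the O-GlcNAc transferase, stood at 3.70, and Wdfy3, an autophagy adaptor, at 3.46. D1Pas1 (3.08), Kmt2c (2.96) and Zak (2.83) completed the 8. Zak is a kinase known to be activated by stalled and collided ribosomes, and had 3.24 and 3.91 in KO and 2.04 and 1.50 in WT. Wdfy3 and Kmt2c had only 36 and 30 footprints in the 71 nt over the 4 libraries.

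Across all members Atf5 was the highest, at 34.6. Atf5 is a stress-response transcription factor whose upstream reading frames restrain its translation. It had 53, 45, 49 and 39 footprints in the 71 nt of KO replicates 1 and 2 and WT replicates 1 and 2, but 13, 11, 16 and 20 in the coding region. Its 5′ UTR held 51, 40, 41 and 30. The 71 nt and the 5′ UTR of Atf5 thus each held more footprints than its listed coding region in every library. A difference between genotypes beyond the typical member was not called (log2 0.11, SE 0.423, edgeR adjusted p = 0.935).

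The lowest ratios were mostly in genes with near-identical copies. Hist1h2bp had 0.0341, Hist1h3g 0.0822, Hist1h4i 0.0829 and Hist1h4m 0.0935, all replication-dependent histones that exist in many copies. Scd3 had 0.0587 and Scd2 0.0812. Ahnak, a very large scaffold protein of the membrane cortex, had 0.102 over a listed coding size of 16911 nt. Reads that match several copies could enter the coding count and not the 71 nt, or the reverse, so these values are uncertain. Whether such reads also affect the highest ratios was not tested.

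Gene groups differed in level, and in every list with at least 5 members both KO libraries had a higher summed ratio than both WT libraries. The 43 members of the large ribosomal subunit had a median density ratio of 0.504 and the 30 of the small subunit 0.496, against 0.698 over all members. Their summed ratios were 0.592 and 0.564 in KO against 0.403 and 0.454 in WT for the large subunit, and 0.601 and 0.562 against 0.370 and 0.413 for the small subunit. Rpl19 had 0.712 and 0.682 against 0.532 and 0.497. The median log2 change of the ratio was -0.25 and 0.09 relative to the typical member, and with coding scaling 8 of 43 (18.6%) and 14 of 30 (46.7%) rose, against 21.1% of all members. In 71 nt counts 30 of 43 (69.8%) and 25 of 30 (83.3%) rose, against 12.4% of all members.

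The 35 translation factors had a summed density ratio of 0.693 and 0.696 in KO and 0.415 and 0.436 in WT. Eef1a1, the elongation factor that delivers tRNAs, had 0.503 and 0.502 against 0.227 and 0.267. Eif5a, which helps ribosomes through poor peptide bond formers, had 1.61 and 1.58 against 0.640 and 0.774. Relative to the typical member neither passed the test (adjusted p = 0.241 and 0.105), and with coding scaling both did (log2 1.03 and 1.19, adjusted p = 0.000428 and 0.000108). Of 17 genes of ribosome rescue and recycling with values in all 4 libraries 3 were members, against 26.8% of all listed transcripts. These were Gnb2l1 (the ribosomal protein RACK1), Abce1, which splits ribosomes after termination, and Xrn1, a 5′ to 3′ exonuclease. Abce1 had 1.78 and 1.66 against 0.717 and 1.34 (adjusted p = 0.864), and Xrn1 had 1.80 and 1.85 against 1.92 and 1.43. The Xrn1 genotypes overlapped.

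The 12 epidermal keratins had the largest KO to WT ratio of the lists with at least 5 members. Their summed density ratio was 0.742 and 0.642 in KO and 0.313 and 0.304 in WT, a ratio of 2.24 against 1.49 over all members. In all 12 both KO libraries lay above both WT libraries, against 61.6% of all members, and 4 of 12 (33.3%) were called higher in the ratio, against 0.454% of all members. Krt6b, which met the minimum only in KO libraries, is among the 4, so these shares are a description. The KO libraries also had the higher keratinocyte share of coding footprints (7.11% and 6.60% against 2.87% and 2.90%), and the part of this in the keratin ratio was not tested. Krt5, of the basal layer, had 0.647 and 0.587 against 0.358 and 0.394 and was not called relative to the typical member (log2 0.09, adjusted p = 0.856), but was with coding scaling (log2 0.71, adjusted p = 0.00593). The 33 cornified envelope genes had 0.974 and 0.772 against 0.592 and 0.603, and 3 of them (9.09%), the Lce1 genes, were called higher. Of these, Lce1e met the minimum only in KO libraries. Sprr1a, a small proline-rich envelope protein, had 1.58 and 1.24 against 0.763 and 0.996 and was called with coding scaling (log2 0.68, adjusted p = 0.00951) but not relative to the typical member (adjusted p = 0.921).

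The 26 junction and adhesion genes had 0.693 and 0.717 in KO against 0.409 and 0.449 in WT, with a median log2 change of 0.01 relative to the typical member. The 12 collagen chains had 0.721 and 0.939 against 0.546 and 0.411, and 4 of the 12 (33.3%) fell in 71 nt counts, against 12.7% of all members. The 68 nuclear genes of oxidative phosphorylation had 0.722 and 0.734 against 0.483 and 0.464. In this group Atp5b, the catalytic β subunit of ATP synthase, had 0.636 and 0.676 against 0.449 and 0.473. The 9 immune cell markers had the lowest median, 0.355, with 0.389 and 0.347 against 0.262 and 0.251. The class II MHC chaperone Cd74 had 0.368 and 0.256 against 0.244 and 0.284, with overlapping genotypes. The 7 stress genes with upstream reading frames, which include Atf5, had the highest median of the larger lists at 1.55. The 43 chaperone and proteasome genes had 0.491 and 0.463 against 0.351 and 0.360, a KO to WT ratio of 1.34. The 26 cytoskeletal genes had 0.597 and 0.601 against 0.405 and 0.431, and of these Actb, which encodes β-actin, had 0.609 and 0.610 against 0.425 and 0.413. The smallest KO to WT ratios of these lists were 1.20 in the 14 hair keratin genes and 1.26 in the 18 immediate early genes, where Jun had 1.27 and 1.46 against 0.758 and 1.24.

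**Figure D5:**
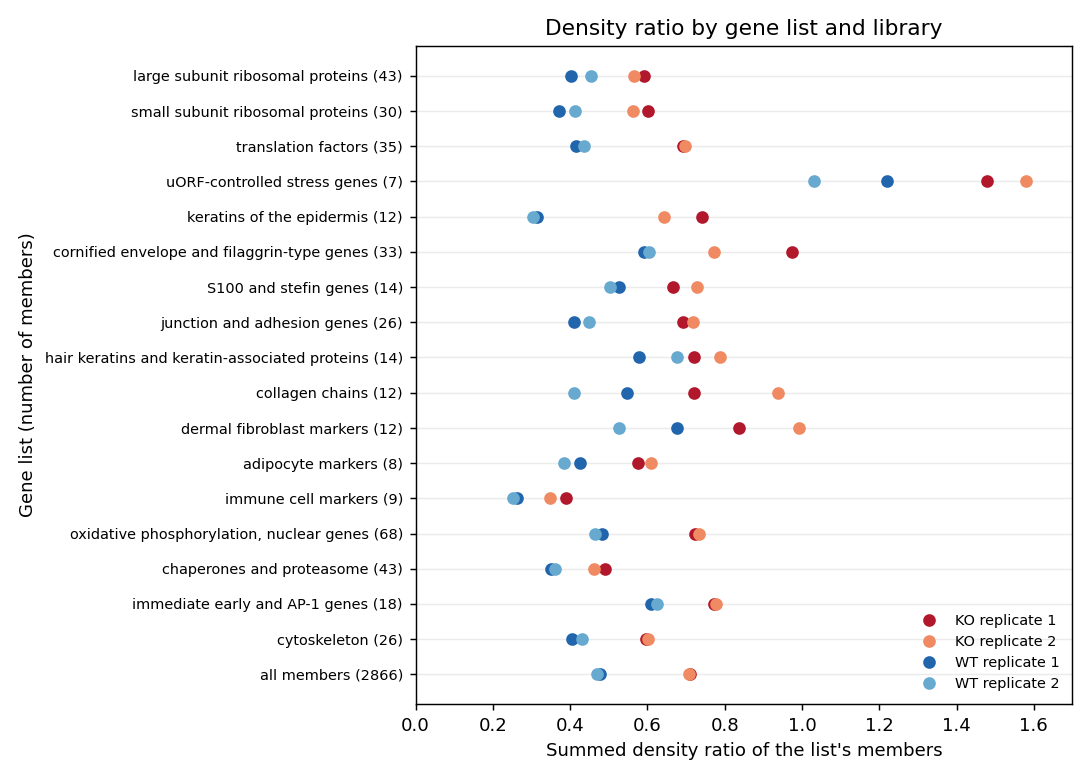
Summed density ratio (horizontal axis) of the members of each gene list with at least 5 members (vertical axis, number of members in brackets), with 1 point per library. In every list both KO points lie to the right of both WT points, and the KO to WT ratio is largest, at 2.24, for the 12 epidermal keratins.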

How the data were processed

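Ribosome profiling libraries of 2 KO and 2 WT samples were analysed; the RNA-seq libraries of the series were not analysed here. The deposited table holds raw footprint counts per transcript and region, and per the file headers it covers footprints of 28 to 34 nt. Another deposited file, said to hold footprints of 20 to 22 nt, is byte-identical, so the length class of the counts is unknown and it was not used. Per the submitters' processing notes, CASAVA 1.8, Bowtie2 2.2.6 and TopHat2 2.0.10 and the builds mm9 and hg19 were used. Which tool aligned the libraries, how multiply mapping reads were counted and how a footprint was assigned to a region is not given in the labels or headers.

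A count is listed only above a coding density of 0.01 per nt, found from the values, so 10690 transcripts with all values in all 4 libraries were used. The 71 nt count was computed by subtraction, and no listed value came out negative. Libraries were grouped by genotype in their titles. The members, the gene lists and the rule for named genes were chosen with earlier results of these data known. Named genes were Pelo, the 8 members with the most 71 nt counts, the 8 highest and 8 lowest density ratios with at least 100 coding counts in every library, the 8 largest rises and falls past the threshold with a mean of at least 20 counts, and the 3 or fewer members of every list with the most 71 nt counts. Predicted genes were left out, a few genes that the rule names are not reported here, and other named genes were chosen after their values were seen.

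The ratio was tested in edgeR 4.0.16 (quasi-likelihood, R 4.3.3) by the genotype-by-region term, with a factor for each library, over 2866 members, with TMM factors within each region (0.892, 0.938, 1.09 and 1.09 for the 71 nt) and Benjamini-Hochberg adjustment at 0.05. Counts of each region were tested the same way without the interaction. Summed ratios were compared by exact permutation tests. The fits were tested on simulated data. With log2 changes of 0.5, 1 and 2 put in, the ratio test called 3.51%, 17.9% and 91.5% of the changed regions. Of its calls, 4.35% were on unchanged regions. A ratio that was not called can therefore still have changed. Alternatives were DESeq2 1.42.0, other minimums, coding scaling, a replicate block and leaving out each library. Another 2, without repeated rows of identical counts and coding scaling with at least 40 counts in all, were chosen after seeing the data. Of the members, 21 have counts identical to another member. Depth of 4221675 to 5282276 coding counts per library gives narrow intervals for sums, while many members lie near the minimum of 10. Replicates differed by more than counting noise (chi-square per region 2.30 in KO and 1.86 in WT for the 71 nt). The coding counts of the members differed more, with 12.8 in KO and 28 in WT.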

Additional observations from a re-analysis of the deposited data

How the results depend on the processing

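The higher level in KO kept its direction under every alternative: the summed KO to WT ratio of 1.85 ran from 1.74 without the 20 members with the most counts to 1.90 with a minimum of 20, and from 1.78 to 1.94 with a library left out. The KO median density ratio was 0.669 over all listed transcripts, and the WT median was 0.462 there and 0.524 with the minimum of 20. With a library left out the KO median ran from 0.786 to 0.820 and the WT median from 0.532 to 0.555. The shortest over the longest length bin (0.901) gave 0.985 with the minimum of 20 and turned to 1.05 over all listed transcripts, and the lowest over the highest abundance bin (2.15) gave 1.07 there. Calls of the ratio (13 higher, 17 lower) depended on the setting. DESeq2 called 2 higher and 0 lower, with 152 members under an unadjusted p of 0.05 against 443 in edgeR. At least 40 counts in all gave 22 higher and 35 lower, coding scaling 604 and 7, and both together 631 and 7. Leaving out a library gave 3 to 8 higher and 1 to 4 lower. For 71 nt counts (356 higher, 365 lower) DESeq2 gave 195 and 116, no minimum gave 540 higher, and a library left out gave 208 to 309 higher and 189 to 253 lower. For coding counts (2124 lower) DESeq2 gave 1177. A replicate block gave 26 lower, and same-numbered libraries did not deviate together (correlation -0.06 for the ratio over 2866 members), so the numbers were not taken to pair the samples. Leaving out 1 library leaves a lone sample that is assumed to vary like the other group. None of the 30 called members reversed direction in the settings where it could be tested. Among uncalled genes the ratio of Sparc turned from -0.16 to 0.46 with coding scaling, with or without the minimum of 40. With 1 library left out it ran from -0.28 to 0.63 for Abce1, from -0.23 to 0.42 for Atf5 and from -0.14 to 0.35 for Sprr1a, each crossing 0. The cause of these differences was not tested.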
